A study of Mus musculus with 18 samples.

Results

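The genes described here are 33 mouse genes of the lysosome: 10 cathepsins, 3 membrane proteins, 6 genes for hydrolases and their activators, 2 cholesterol exporters, 3 mucolipin channels, 3 transcription factors and 6 subunits of the proton pump. They were selected by gene name, and each was found once among the 28684 genes of the count table. Bulk RNA sequencing had been done on sciatic nerve, which carries sensory axons with their Schwann cells, and on the L3-L5 dorsal root ganglia (DRG), where the cell bodies of those neurons lie. All mice were labelled C57BL/6, with no other genotype or treatment named, and both tissues were taken without disease, at peak disease (PID21) and in recovery (PID42). Each of these 6 groups held 3 libraries, which made 18. Neither the means of inducing disease nor the meaning of PID is given in the sources used here.

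Lysosomes break down material delivered by endocytosis, phagocytosis and autophagy. A vacuolar-type ATPase (V-ATPase) pumps protons into the lumen, and the acid pH activates cathepsins, which cut proteins, and hydrolases, which cut glycans and lipids. Transcription factors of the MiT/TFE family, TFEB above all, bind E-boxes with the core CACGTG in the promoters of many lysosomal genes. In damaged peripheral nerve, Schwann cells and macrophages are both known to take up and digest myelin.

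Total counts ran from 13686465 to 23435562 per library, and the 33 genes together took 0.422% to 1.17% of them. Nothing in the labels ties the libraries of a group to separate mice, so p-values reflect the spread between these libraries, part of which may be technical. Levels are given as CPM, counts scaled to library size, scaled by TMM within a tissue, listed in the order of replicates 1, 2 and 3, with n = 3 per group throughout. A change is given as log2 fold change with its SE, taken from a quasi-likelihood test in edgeR, and a gene was called when its Benjamini-Hochberg adjusted p over all genes tested was under 0.05. Markers of myelinating Schwann cells summed to 16500 to 29570 CPM in nerve without disease, and markers of sensory neurons to 13600 to 15730 CPM in DRG, as the tissue labels name. Nerve no disease replicate 1 stood apart in sensory neuron markers, which summed to 558 CPM there and to 195 and 139 CPM in replicates 2 and 3. The same library was high in macrophage markers (1723 against 1099 and 1114 CPM) and red blood cell markers (124 against 37.3 and 45.45 CPM) and low in myelinating Schwann cell markers (16500 against 29570 and 28690 CPM). DRG recovery replicate 1 stood apart in macrophage markers, which summed to 255 CPM against 558.9 and 536 CPM in replicates 2 and 3. It was also low in neutrophil markers (50.6 against 464 and 399 CPM) and red blood cell markers (48.2 against 548 and 354 CPM) and high in sensory neuron markers (15120 against 10720 and 11380 CPM). DRG peak replicate 3 was high in red blood cell markers (324 against 112 and 104 CPM) and neutrophil markers (338 against 141 and 88.3 CPM). DRG peak replicate 2 was low in macrophage markers (404.5 against 591.5 and 630.6 CPM) and fibroblast markers (1830 against 4156 and 3000 CPM). It was also low in osteoclast markers (11.2 against 26.6 and 23.2 CPM) and highest of its group in sensory neuron markers (12750 against 10740 and 11320 CPM). Nerve peak replicate 2 was high in macrophage markers (6294 against 4314 and 3143 CPM) and mast cell markers (253 against 58.9 and 113 CPM). That library was low in myelinating Schwann cell markers (12010 against 19880 and 21480 CPM) and adipocyte markers (430 against 1188 and 2206 CPM).

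The start regions of 5 genes are printed because the data contrast them: Ctsd and Ctss, the cathepsins with the largest changes at nerve peak, Lamp1, which changed little, and Mcoln1 and Atp6v0d1, whose close relatives changed and which themselves were not called there. Each runs from 250 bases before to 50 bases after the RefSeq start site on GRCm38.p6, in the direction of the gene, with capitals marking CACGTG or GAGGAAGT on either strand. The second motif is a core sequence bound by PU.1, a factor of the macrophage lineage, and reads ACTTCCTC where it lies on the opposite strand. Ctsd lies at chr7:142387778-142388077 on the minus strand.
Ctsd: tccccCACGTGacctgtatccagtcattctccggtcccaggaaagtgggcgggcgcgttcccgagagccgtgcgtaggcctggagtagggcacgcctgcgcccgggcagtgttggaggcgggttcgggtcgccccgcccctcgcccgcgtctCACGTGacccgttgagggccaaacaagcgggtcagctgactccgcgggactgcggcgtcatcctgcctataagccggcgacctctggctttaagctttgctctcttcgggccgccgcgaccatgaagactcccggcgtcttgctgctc
Ctss lies at chr3:95526536-95526835 on the plus strand.
Ctss: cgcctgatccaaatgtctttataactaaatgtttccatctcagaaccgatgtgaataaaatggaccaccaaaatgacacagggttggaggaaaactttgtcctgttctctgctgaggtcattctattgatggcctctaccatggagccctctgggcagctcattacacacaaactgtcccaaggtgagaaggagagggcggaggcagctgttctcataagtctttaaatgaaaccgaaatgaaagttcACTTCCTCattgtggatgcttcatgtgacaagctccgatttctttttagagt
Lamp1 lies at chr8:13158911-13159210 on the plus strand.
Lamp1: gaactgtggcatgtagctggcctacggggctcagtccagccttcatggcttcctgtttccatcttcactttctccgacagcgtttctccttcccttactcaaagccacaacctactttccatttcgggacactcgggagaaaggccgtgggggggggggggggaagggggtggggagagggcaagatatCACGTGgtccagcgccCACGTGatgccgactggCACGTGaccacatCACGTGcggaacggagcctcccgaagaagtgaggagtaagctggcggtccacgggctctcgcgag
Mcoln1 lies at chr8:3500269-3500568 on the plus strand.
Mcoln1: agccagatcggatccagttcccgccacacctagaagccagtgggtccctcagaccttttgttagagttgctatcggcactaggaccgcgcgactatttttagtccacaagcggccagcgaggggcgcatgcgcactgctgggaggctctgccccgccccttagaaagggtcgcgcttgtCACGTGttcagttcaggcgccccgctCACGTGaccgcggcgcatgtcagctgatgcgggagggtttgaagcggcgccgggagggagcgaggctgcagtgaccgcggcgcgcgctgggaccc
Atp6v0d1 lies at chr8:105566015-105566314 on the minus strand.
Atp6v0d1: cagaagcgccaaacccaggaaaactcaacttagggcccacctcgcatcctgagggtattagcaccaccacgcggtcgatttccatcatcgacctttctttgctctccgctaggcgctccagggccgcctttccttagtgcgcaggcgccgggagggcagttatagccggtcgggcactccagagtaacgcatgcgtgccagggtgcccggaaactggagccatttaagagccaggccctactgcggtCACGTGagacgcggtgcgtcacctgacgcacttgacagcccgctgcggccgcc

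The CACGTG in these stretches began 245 and 98 bases before the start site in Ctsd, 61, 45, 28 and 15 bases before it in Lamp1, 71 and 45 before it in Mcoln1 and 3 before it in Atp6v0d1. In Ctss the GAGGAAGT began 2 bases before the start site and no CACGTG was present. RefSeq promoters were matched for 27 of the 33 genes. CACGTG, searched on both strands, was in the promoters of 10 of them (Atp6v0d1, Atp6v1a, Ctsa, Ctsd, Ctsf, Ctsl, Glb1, Lamp1, Mcoln1 and Mcoln2), and in 7.15% of all 32851 promoters of this length. The longer TCACGTGA, which contains CACGTG, was in 5 of them (Atp6v0d1, Atp6v1a, Ctsa, Ctsd and Mcoln1) against 0.974% of all promoters. The CLEAR consensus, which extends it by a base on each side, was in 0 of the 27 and in 0.326% of all. GAGGAAGT was in 4 (Ctsc, Ctss, Gusb and Mcoln3) against 3.2% of all promoters. CATGTG was in 4 (Ctsa, Ctss, Grn and Scarb2) against 14.2%. A gene was counted when any of its promoters held the motif, while the percentages are of single promoters. The 27 genes had 33 promoters, of which 10, 5, 0, 4 and 4 held these motifs, in the order given. These matches describe letters in the windows and do not show that a factor binds there.

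At peak disease the lysosomal genes of the sciatic nerve moved upward. Of the 33, 21 rose and 0 fell, while 15% of the 16049 genes tested were called higher and 12.1% lower. Their median log2 fold change was 0.69, against 0.0032 for all genes tested. Calls covered 8 of 10 cathepsins, 1 of 3 membrane proteins, 6 of 6 hydrolases and activators, 2 of 2 cholesterol exporters, 1 of 3 mucolipins, 3 of 6 V-ATPase subunits and 0 of 3 transcription factors. Summed over the 33 genes, the level went from 5009 to 5350 CPM without disease to 9106 to 11390 CPM at peak. Reads of ribosomal RNA, held by 3 genes, made up 3.30% to 20.8% of counts without disease and 0.594% to 2.14% at peak, and with these genes removed 22 of the 33 were called higher.

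**Figure D1:**
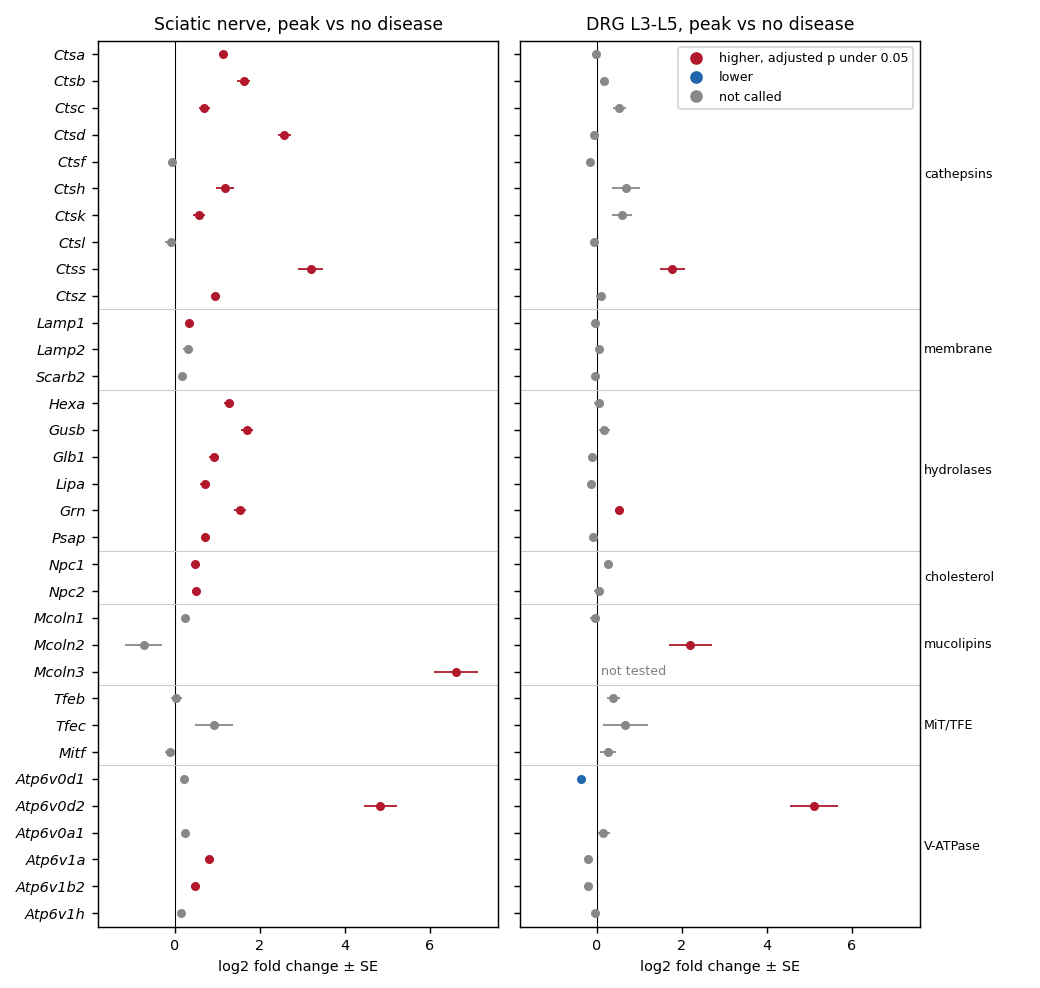
Log2 fold change at peak over no disease for each of the 33 genes in sciatic nerve (left) and DRG (right), grouped by role, with bars showing 1 SE; red points were called higher, blue lower and grey not called by edgeR. In nerve 21 points are red, while in DRG 4 are red and 1 is blue, and Mcoln3 was not tested there.

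Among the cathepsins, Ctss had the largest change. It encodes cathepsin S, a cysteine protease that stays active at neutral pH and trims the invariant chain in antigen-presenting cells. Its level was 78.99, 46.5 and 56.5 CPM without disease and 564, 741 and 358 CPM at peak. Every peak library stood above every library without disease, and the log2 fold change was 3.19 ± 0.29 (edgeR adjusted p = 9.32e-05). Ctsd, which encodes the aspartic protease cathepsin D, went from 208, 254 and 217 CPM to 1266, 1672 and 1105 CPM. The groups did not overlap, and the log2 fold change was 2.57 ± 0.15, which is 5.96-fold (edgeR adjusted p = 1.32e-05).

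Ctsa encodes a serine carboxypeptidase that also protects β-galactosidase and neuraminidase in a complex. It went from 99.6, 118 and 113 CPM to 238, 253 and 229 CPM (log2 fold change 1.12 ± 0.09), with 17.4% of its exon bases overlapping Neurl2 or Pltp. Ctsc, whose product activates serine proteases of immune cell granules, went from 202, 145 and 147 CPM to 265, 290.3 and 241 CPM (log2 fold change 0.69 ± 0.13). For both genes the lowest peak library was above the highest library without disease. Ctsb, a cysteine protease that also acts as a peptidyl-dipeptidase, ranged over 523 to 683 CPM without disease and 1481 to 2222 CPM at peak (log2 fold change 1.61 ± 0.16).

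The aminopeptidase gene Ctsh ranged over 42.3 to 67.1 and then 86.7 to 153 CPM (log2 fold change 1.17 ± 0.22), and the carboxypeptidase gene Ctsz over 102 to 117 and then 189 to 233 CPM (0.94 ± 0.10). Ctsk, the collagen-cutting protease of osteoclasts, ranged over 45.8 to 59.9 and 60.9 to 85.6 CPM (0.56 ± 0.15). The Ctsk call was lost without nerve no disease replicate 2 or 3 or without nerve peak replicate 1 or 2, where adjusted p ran up to 0.0731. Over all alternatives tried, these fits included, it was kept in 8 and lost in 5. Ctsf and Ctsl, both cysteine proteases, were not called. Ctsf ranged over 49.02 to 51.9 CPM without disease and 40.4 to 53.2 CPM at peak, and Ctsl over 249 to 328 and 238 to 295 CPM. Both pairs of ranges overlapped.

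The membrane proteins changed less. Lamp1, an abundant glycoprotein that lines the lysosomal membrane, went from 482, 566 and 548 CPM to 694, 633 and 694 CPM, a log2 fold change of 0.34 ± 0.09 (edgeR adjusted p = 0.017). Its groups did not overlap, but without nerve peak replicate 1 the adjusted p was 0.0557. Lamp2, which has an isoform that serves as the receptor of chaperone-mediated autophagy, had 404, 371 and 360.2 CPM without disease and 466, 516 and 411 CPM at peak. The groups did not overlap either, and the log2 fold change of 0.30 ± 0.10 missed the threshold by little (edgeR adjusted p = 0.05002). It passed without nerve no disease replicate 1 or without nerve peak replicate 3 (adjusted p = 0.0421 and 0.0155). Scarb2, which carries glucocerebrosidase to the lysosome, ranged over 470 to 511 CPM without disease and 532 to 562 CPM at peak and was not called.

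All 6 hydrolase and activator genes rose at nerve peak. Gusb, the β-glucuronidase that trims glycosaminoglycans, went from 33.8, 32.8 and 33 CPM to 106, 127 and 87.99 CPM (log2 fold change 1.69 ± 0.14, edgeR adjusted p = 3.99e-05). Grn, which encodes progranulin, a secreted and lysosomal protein cut into granulins, went from 117, 89.4 and 89.3 CPM to 305, 306 and 242 CPM (log2 fold change 1.52 ± 0.15). In both genes the groups were far apart beside their spread. Hexa, a subunit of the β-hexosaminidase that degrades ganglioside GM2, ranged over 97.3 to 122 CPM without disease and 224 to 293 CPM at peak (log2 fold change 1.27 ± 0.12).

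Glb1, the β-galactosidase, rose by a log2 fold change of 0.92 ± 0.11. Lipa, the acid lipase that frees cholesterol from its esters, rose by 0.72 ± 0.12. Psap, the precursor of the saposins that present sphingolipids to their hydrolases, rose by 0.72 ± 0.08 from 915 to 996 to 1555 to 1579 CPM. Libraries without disease and at peak did not overlap for Glb1, Lipa or Psap.

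Both cholesterol exporters rose. NPC2 binds cholesterol in the lumen and hands it to NPC1 in the membrane. Npc2 went from 194, 215 and 203 CPM to 283, 306 and 270.3 CPM (log2 fold change 0.49 ± 0.08), and Npc1 from 104, 122 and 122 CPM to 157, 159.8 and 167 CPM (log2 fold change 0.48 ± 0.08). Every peak library was above every library without disease for both, and the edgeR adjusted p was 0.00242 for Npc2 and 0.0029 for Npc1.

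The 3 mucolipins, cation channels that release calcium from endosomes and lysosomes, differed in their calls, with 1 higher and the others not called. Mcoln3 had 2, 0 and 4 counts in the libraries without disease and 211, 351 and 275 counts at peak, or 0.114, 0 and 0.259 CPM and 10.02, 19.96 and 11.48 CPM. The fitted log2 fold change was 6.60 ± 0.52 (edgeR adjusted p = 3.73e-05), and its size rests on the few counts without disease. Mcoln2, which lies 8026 bases from Mcoln3 on chromosome 3, had 3.52, 8.34 and 11.48 CPM without disease and 4.04, 6.94 and 3.01 CPM at peak. These groups overlapped and the gene was not called (log2 fold change -0.74 ± 0.43, edgeR adjusted p = 0.228). Without nerve no disease replicate 1, which was the lowest of its group, it was called lower (log2 fold change -1.10, adjusted p = 0.0467). Mcoln1, the widely expressed member, ranged over 24.4 to 27.9 CPM without disease and 29.2 to 34.03 CPM at peak and was not called.

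None of the 3 MiT/TFE genes was called at nerve peak by edgeR, with 0 also at an unadjusted p under 0.05, and DESeq2 and limma-voom called 0 as well. Tfeb, the main regulator of lysosomal genes, ranged over 14.9 to 16.4 CPM without disease and 14.3 to 18.04 CPM at peak. Mitf, best known from pigment cells and osteoclasts, ranged over 42.4 to 53.8 and 39.7 to 50.8 CPM. Tfec, a relative found in the macrophage lineage, had 3.06, 2.29 and 2.46 CPM without disease and 3.27, 8.13 and 3.59 CPM at peak. The Tfec groups did not overlap, replicate 2 stood high at peak, and the log2 fold change of 0.92 ± 0.45 was not called (edgeR adjusted p = 0.156). RNA levels do not measure how much of these factors is in the nucleus, and TFEB is mainly controlled through whether it enters the nucleus.

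In the V-ATPase the largest log2 fold change among the 3 called subunits was that of Atp6v0d2, a form of the d subunit. This subunit links the membrane sector to the stalk, Atp6v0d1 encodes its widespread form, and Atp6v0d2 encodes a form known from osteoclasts, macrophages and kidney. Atp6v0d2 went from 2.33, 1.65 and 2.14 CPM to 37.7, 97.8 and 42.5 CPM, a log2 fold change of 4.83 ± 0.39 (edgeR adjusted p = 4.32e-05). Replicate 2 was the highest at peak, yet the lowest peak library was far above the highest library without disease. Atp6v0d1 had 51.4, 59.9 and 51.9 CPM without disease and 68.1, 59.1 and 63.1 CPM at peak, with groups that overlapped and no call.

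Of the other subunits, Atp6v1a, which carries the catalytic site, rose by a log2 fold change of 0.81 ± 0.11 from 97.4 to 119.7 to 176 to 211 CPM. Atp6v1b2, the partner subunit of the catalytic head, rose by 0.46 ± 0.08 from 82.6 to 87.2 to 112 to 123 CPM. Atp6v0a1, a membrane subunit of the neuronal pump, ranged over 69.8 to 74.8 CPM without disease and 80.9 to 89.9 CPM at peak, and the regulatory subunit gene Atp6v1h over 69.4 to 77.7 and 75.9 to 83.8 CPM. Neither was called.

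**Figure D2:**
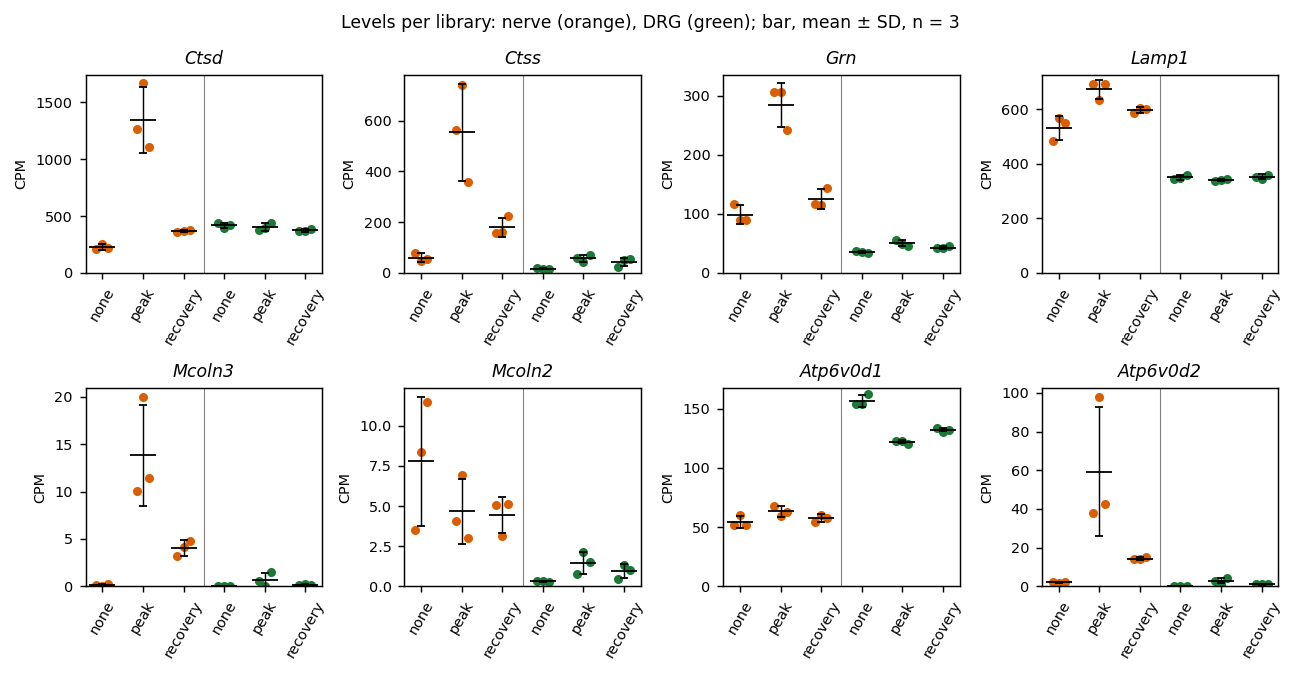
Levels (CPM, linear axes from 0) of 8 genes in every library, with nerve in orange, DRG in green, and a bar with whiskers for mean ± SD of 3 libraries. Ctsd, Ctss, Grn, Mcoln3 and Atp6v0d2 peaked in the nerve peak group, while Atp6v0d1 was lower in DRG at peak than without disease.

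Per kilobase of exon, the balance between related genes shifted. Atp6v0d2 made up 1.79% to 2.90% of the d subunit counts in nerve without disease, 26.8% to 52.2% at peak and 13.4% to 14.53% in recovery. In DRG the same share was 0.0229% to 0.0459%, then 0.732% to 2.17%, then 0.460% to 0.637%. Mcoln3 made up 0% to 1.05% of mucolipin counts in nerve without disease, 35.7% to 49.1% at peak and 13.8% to 20.6% in recovery. Among Tfeb, Tfec and Mitf, without Tfe3, the nerve shares of Mitf overlapped, at 67.2% to 73.2% without disease and 62.6% to 68.2% at peak. These shares are descriptions of the libraries and were not tested.

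**Figure D3:**
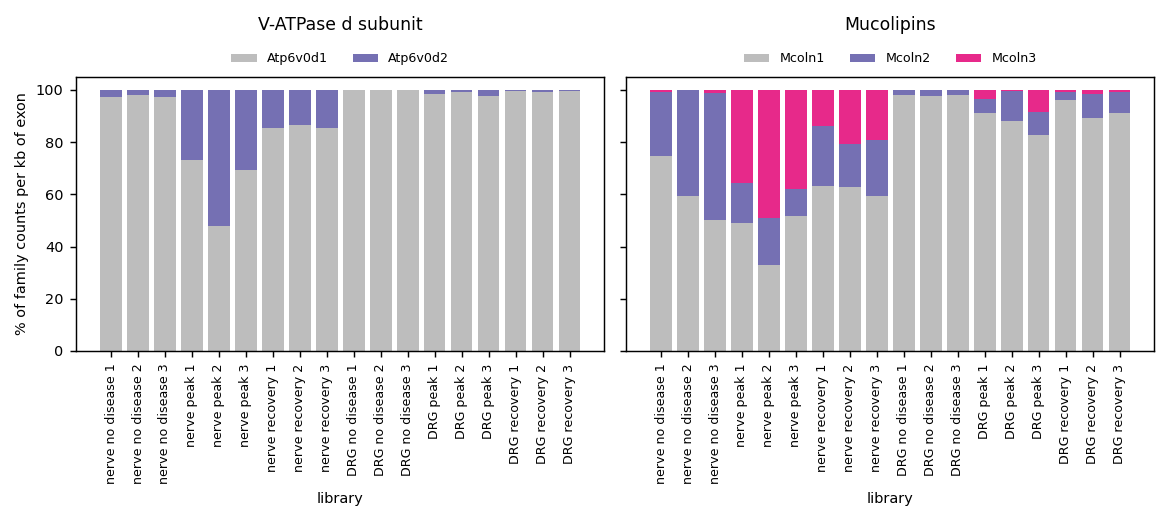
Share of each related gene in its family, as counts per kilobase of exon in percent, for the d subunit of the V-ATPase (left) and the mucolipins (right) in each of the 18 libraries. Atp6v0d2 reached 26.8% to 52.2% of its pair in the nerve peak libraries and stayed under 3% in every DRG library.

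Markers of other cells moved with these changes in nerve. In bulk tissue, fewer cells of a type and less RNA per cell cannot be told apart. Of 16 macrophage markers, 11 rose and 1 (Cd14) fell at nerve peak, none was at 0, and their summed level went from 1099 to 1723 CPM without disease to 3143 to 6294 CPM at peak and 1810 to 2260 CPM in recovery. Of 8 fibroblast markers 5 rose and 2 fell (16850 to 20180 CPM without disease, 25720 to 31410 CPM at peak), and of 10 markers of Schwann lineage and repair 6 rose (1475 to 1839 and 2173 to 2413 CPM). Of 13 sensory neuron markers 10 fell (139 to 558 and 82.0 to 100.7 CPM), and of 6 endothelial markers 4 fell (399 to 422 and 122 to 314 CPM). Myelinating Schwann cell markers had 2 of 10 lower (16500 to 29570 and 12010 to 21480 CPM). Satellite glia markers had 4 of 7 higher and 1 lower (2523 to 2804 and 5547 to 6697 CPM), which does not show that satellite glia are present in nerve. The osteoclast list of 7 holds Ctsk and Atp6v0d2 themselves: its other tested marker, Acp5, was not called and Calcr had 0 counts in every nerve peak library. Of 7 skeletal muscle markers 5 fell at nerve peak, where 12.1% of all genes tested were called lower. In nerve recovery against no disease 5 were lower, beside 0.393% of all genes. They summed to 190 to 730 CPM without disease, 6.17 to 45 CPM at peak and 8.99 to 13.5 CPM in recovery. The part of any of these lists in the changes of the lysosomal genes was not tested.

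In recovery the lysosomal genes of the nerve stood lower than at peak. Against peak, 18 of the 33 genes fell and 0 rose, where 11.1% of all genes tested were called lower and 7.36% higher, and the median log2 fold change was -0.45. Against no disease, 4 of 33 were called higher (Ctsa, Ctss, Mcoln3 and Atp6v0d2) and 0 lower, where 0.629% of all genes were called higher and 0.393% lower. These comparisons share libraries with the one at peak, so they are not independent of it.

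Atp6v0d2 stood at 13.9, 14.1 and 14.9 CPM in nerve recovery, 4.12-fold under its level at peak and 6.92-fold over that without disease (log2 fold change 2.79 ± 0.39, edgeR adjusted p = 0.0163). Mcoln3 stood at 3.17, 4.12 and 4.82 CPM, with a log2 fold change of 4.84 ± 0.55 over no disease (edgeR adjusted p = 0.00622). Ctss stood at 156, 159 and 223 CPM (log2 fold change 1.56 ± 0.28, edgeR adjusted p = 0.0348). For these genes all 3 recovery libraries lay between the ranges of the other stages.

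Ctsa stood at 142, 154 and 152 CPM (log2 fold change 0.44 ± 0.09, edgeR adjusted p = 0.0483). Ctsd stood at 359, 370.3 and 379 CPM, above every library without disease, but its log2 fold change of 0.71 ± 0.15 was not called (edgeR adjusted p = 0.0597). Psap ranged over 1154 to 1251 CPM, also above all libraries without disease, and was not called either (log2 fold change 0.33 ± 0.08, edgeR adjusted p = 0.111). The 5 hydrolase and activator genes other than Lipa fell from peak, by log2 fold changes from 0.39 ± 0.08 for Psap to 1.30 ± 0.13 for Gusb. The cathepsin genes Ctsd and Ctsb fell by 1.86 ± 0.15 and 1.35 ± 0.16 on the log2 scale.

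The small set called against no disease depended on single libraries. Leaving out nerve no disease replicate 2 or 3 or any recovery library left 1 call, Mcoln3, and leaving out nerve no disease replicate 1 left 3. DESeq2 called 6 and limma-voom 1. Of the falls from peak, those of Ctsc, Ctsh, Atp6v1b2 and Psap were lost without 1 or more single libraries of the recovery group (adjusted p from 0.0506 to 0.126), and that of Ctsc also without nerve peak replicate 1 or 2 (0.0858 and 0.106). Over all alternatives tried, these fits included, the Ctsc fall was kept in 7 and lost in 6.

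**Figure D4:**
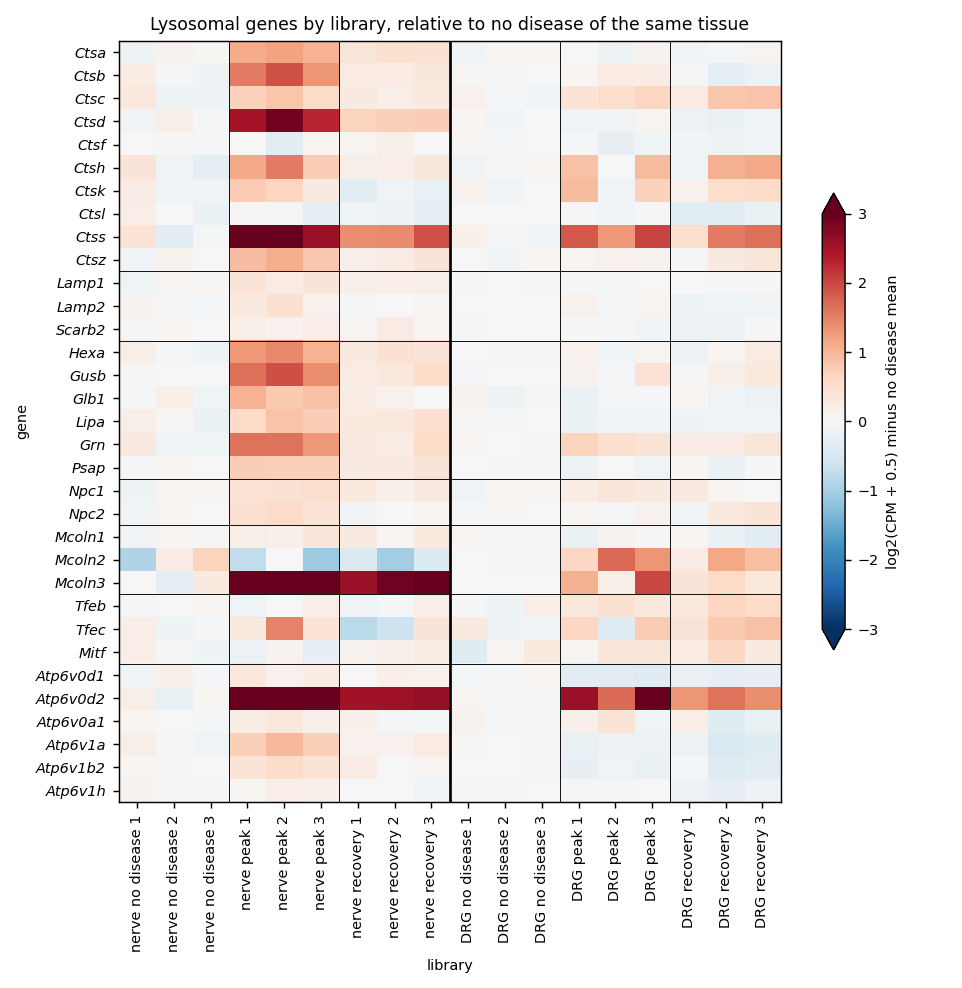
Level of each gene in each of the 18 libraries as log2(CPM + 0.5) minus the mean of the 3 libraries without disease in the same tissue, with red above and blue below and a scale clipped at 3 in both directions. The nerve peak columns are red for most genes, while in DRG the strong reds are in Ctss, Mcoln2, Mcoln3 and Atp6v0d2.

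In DRG at peak few lysosomal genes changed. Of 32 tested, 4 rose (Ctss, Mcoln2, Atp6v0d2 and Grn) and 1 fell (Atp6v0d1), where 4.42% of 16482 genes tested were called higher and 3.21% lower. The median log2 fold change was 0.05, against 0.010 over all genes. Mcoln3 had too few counts to be tested.

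Atp6v0d2 went from 0.107, 0.0560 and 0.0562 CPM (2, 1 and 1 counts) to 2.97, 1.37 and 4.05 CPM (44, 22 and 56 counts), a log2 fold change of 5.12 ± 0.56 (edgeR adjusted p = 0.00168). Its relative Atp6v0d1 fell from 154, 154 and 162 CPM to 123, 123 and 120.5 CPM, a log2 fold change of -0.36 ± 0.06 (edgeR adjusted p = 0.00786). The groups did not overlap for either gene, and Atp6v0d1 remained by far the more abundant of the pair. Atp6v1a and Atp6v1b2 ranged over 509 to 545 and 448 to 461 CPM without disease and 449 to 469.6 and 383 to 419 CPM at peak. Neither was called. Atp6v0a1 and Atp6v1h were not called either, with 175 to 254 and 232 to 240.2 CPM at peak.

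Ctss went from 18.6, 16.02 and 15.6 CPM to 60.5, 41.9 and 69.5 CPM (log2 fold change 1.78 ± 0.29, edgeR adjusted p = 0.00792). Grn went from 37.2, 34.6 and 33.4 CPM to 55.8, 48.7 and 46.1 CPM (log2 fold change 0.52 ± 0.09, edgeR adjusted p = 0.00852). Both stood higher in every peak library than in any library without disease. Mcoln2 went from 0.321, 0.336 and 0.281 CPM to 0.742, 2.12 and 1.52 CPM, or from 6, 6 and 5 counts to 11, 34 and 21 (log2 fold change 2.21 ± 0.51, edgeR adjusted p = 0.0293). This call was lost without any 1 DRG library of no disease and without DRG peak replicate 2 or 3 (adjusted p from 0.0744 to 0.108). Over all alternatives tried, these fits included, it was kept in 7 and lost in 6.

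Mcoln3 had 0 counts in all 3 DRG libraries without disease and 8, 1 and 21 counts at peak. Against a floor of 3 counts over the group without disease (0.0552 CPM), the peak group of 30 counts was 12.2-fold higher. The floor allows for counting error in the group at 0 only, and the 30 counts enter as they stand. Of the 30 counts 21 came from replicate 3, and without it the value was 5.28-fold. Without any 1 library of no disease it was 7.97 to 8.17-fold, and without DRG peak replicate 2 it was 18.3-fold. In recovery Mcoln3 had 3, 6 and 3 counts, 3.22-fold over the same floor, or 2.11 to 2.17-fold without any 1 library of no disease.

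Ctsd, second to Ctss among the cathepsins at nerve peak, had 438, 395 and 426 CPM without disease and 381, 392 and 441 CPM at peak in DRG. Its groups overlapped and the log2 fold change was -0.05 ± 0.08 (edgeR adjusted p = 0.752). Ctsc had 40.98, 36.3 and 35.2 CPM and then 50.2, 53.9 and 58.6 CPM, without overlap but without a call (log2 fold change 0.53 ± 0.16, edgeR adjusted p = 0.0626). Lamp1 had 344, 346 and 359.6 CPM and 338, 339 and 345 CPM, and Lamp2 437, 427 and 429.5 CPM and 475, 419.5 and 454 CPM. Both pairs overlapped and neither was called. Npc1 had 62.9, 72.5 and 71.6 CPM and 79.96, 88.1 and 82.7 CPM and was not called, although its groups did not overlap. Tfec had 0.696, 0.392 and 0.393 CPM and 1.01, 0.249 and 1.16 CPM, few counts in each library, and no call.

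Of the remaining genes in DRG, Ctsh ranged over 9.52 to 10.8 CPM without disease and 10.3 to 20.2 CPM at peak and Ctsk over 8.96 to 10.5 and 8.91 to 19.1 CPM, with DRG peak replicate 2 the lowest of its group in both. Tfeb, at 5.27 to 6.80 and 7.42 to 8.29 CPM, was not called (log2 fold change 0.39 ± 0.15, edgeR adjusted p = 0.145). Ctsb, at 832 to 864 and 889 to 1010 CPM, was not called either (0.19 ± 0.08, edgeR adjusted p = 0.199). The hydrolase genes Hexa, Gusb, Glb1, Lipa and Psap were not called, at 63.8 to 73.4, 19.9 to 27.6, 25.6 to 28.8, 65.3 to 70.3 and 915 to 1018 CPM at peak. Beside these values, 11 of 16 macrophage markers rose at DRG peak (summed level 209 to 225 CPM without disease, 404 to 631 CPM at peak) and 7 of 10 myelinating Schwann cell markers rose (3312 to 5248 and 7493 to 8337 CPM), while 3 of 13 sensory neuron markers fell (13600 to 15730 and 10740 to 12750 CPM). Their part in the changes was not tested.

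In DRG recovery 3 of 32 genes were higher than without disease (Ctsc, Ctss and Atp6v0d2) and 1 was lower (Atp6v0d1), where 2.44% of all genes were called higher and 0.734% lower. Ctss stood at 23.4, 49.96 and 53.8 CPM (log2 fold change 1.34 ± 0.29, edgeR adjusted p = 0.0383) and Ctsc at 44.5, 67 and 67.7 CPM (0.67 ± 0.15, edgeR adjusted p = 0.0468). In both genes replicate 1 was the lowest of its group by a wide gap, as it was in macrophage markers, and every recovery library was still above all libraries without disease. Atp6v0d2 stood at 0.933, 1.27 and 1.01 CPM (log2 fold change 3.75 ± 0.60, edgeR adjusted p = 0.0204) and Atp6v0d1 at 133, 131 and 132 CPM (-0.25 ± 0.06, edgeR adjusted p = 0.0495). Beside these values, 8 of 16 macrophage markers rose (summed level 209 to 225 CPM without disease, 255 to 558.9 CPM in recovery) and 7 of 10 myelinating Schwann cell markers rose (3312 to 5248 and 7040 to 8994 CPM). All 7 neutrophil markers and all 5 red blood cell markers had fold changes above 0 and 0 of either list were called, with summed levels of 55.06 to 158 and 50.6 to 464 CPM for the first and 55.2 to 139 and 48.2 to 548 CPM for the second. Their part in the changes was not tested.

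Some genes lay close to the threshold in DRG recovery. Ctsl, the most abundant cysteine cathepsin of DRG after Ctsb per kilobase, ranged over 879 to 893 CPM without disease and 698 to 774 CPM in recovery (log2 fold change -0.29 ± 0.07, edgeR adjusted p = 0.0532). Atp6v1a ranged over 387 to 470.1 CPM (-0.33 ± 0.08, edgeR adjusted p = 0.0537), and Tfeb over 7.41 to 9.47 CPM (0.53 ± 0.15, edgeR adjusted p = 0.0746). Their recovery libraries did not overlap with those without disease, and none of the 3 was called. Leaving out DRG recovery replicate 1 gave 8 genes higher and 6 lower, with Ctsl, Atp6v1a and Tfeb among those called (adjusted p = 0.0127, 0.0027 and 0.0175). Leaving out any other single library of these groups gave 0 and 0. Calls over all genes also moved in the fits that left out a single library. They ran from 2 to 1758 higher and from 0 to 1864 lower, against 402 and 121 with every library kept. The 8 and 6 calls are therefore not shown to be particular to the lysosomal genes.

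Between peak and recovery in DRG, 0 of 32 genes were called in either direction by edgeR, where 0.0303% of all genes were called higher and 0.109% lower. At an unadjusted p under 0.05 there were 6, and DESeq2 called 2 lower. Atp6v0d2 had a log2 fold change of -1.37 ± 0.37 (edgeR adjusted p = 0.184), Ctsb of -0.36 ± 0.08 (0.123) and Ctss of -0.43 ± 0.28 (0.491). Without DRG recovery replicate 1, 1 gene was called higher and 3 lower, Ctsb among the latter (adjusted p = 0.00984). Calls over all genes moved as well when a single library was left out. They ran from 0 to 579 higher and from 0 to 1175 lower, against 5 and 18 with every library kept. These calls are therefore not shown to be particular to the lysosomal genes either.

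The change from no disease to peak was compared between the tissues in 1 fit of all 18 libraries. The nerve change minus the DRG change, with its sign, was called above 0 for 15 of the 33 genes and below 0 for 1. Of 17289 genes tested, 6.63% were called above 0 and 9.47% below. Above 0 were 5 cathepsins (Ctsa, Ctsb, Ctsd, Ctss and Ctsz), Lamp1, and all 6 hydrolases and activators. So were the V-ATPase subunits Atp6v0d1, Atp6v1a and Atp6v1b2. The difference was 2.59 ± 0.18 on the log2 scale for Ctsd (edgeR adjusted p = 1.51e-06), 1.47 ± 0.20 for Gusb and 0.76 ± 0.11 for Psap. For Atp6v0d1 it was 0.54 ± 0.10 (edgeR adjusted p = 0.00272), a gene that was called lower in DRG and not called in nerve.

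Mcoln2 was the gene below 0, with a difference of -2.98 ± 0.75 (edgeR adjusted p = 0.0144). In limma-voom this Mcoln2 difference was not called (adjusted p = 0.0707), while the fits that left out 1 library kept it (up to 0.0488). Ctss rose in both tissues, and its excess of 1.37 ± 0.45 in nerve was near the threshold (edgeR adjusted p = 0.047). That call was lost in 9 of the 12 fits that left out 1 library, all but those without nerve no disease replicate 1, nerve peak replicate 3 or DRG peak replicate 3 (adjusted p up to 0.118). Over all alternatives tried, these fits included, the Ctss call was kept in 7 and lost in 11. The Lamp1 call was lost without nerve peak replicate 1, DRG no disease replicate 3 or DRG peak replicate 1 (0.0554 to 0.0687). Atp6v0d2 had large rises in both tissues, and a difference between them was not detected (-0.32 ± 0.90, edgeR adjusted p = 0.843), and the 95% interval of the difference ran from -2.09 to 1.44 on the log2 scale.

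Without disease, the tissues already differed in most of these genes. Of the 33, 19 were higher in nerve and 11 higher in DRG, where 37.4% and 37% of all genes tested were. The split followed role in part: 5 of 6 V-ATPase subunits were higher in DRG, all except Atp6v0d2, while 7 of 10 cathepsins and 3 of 3 MiT/TFE genes were higher in nerve. The log2 difference, nerve minus DRG, was -2.53 ± 0.10 for Atp6v1b2 and -2.40 ± 0.11 for Atp6v1a. It was 2.30 ± 0.22 for Ctsk, 2.26 ± 0.32 for Ctsh, 4.49 ± 0.56 for Mcoln2 and 1.93 ± 0.17 for Mitf. Ctsl, Ctsd and Ctsb were the cathepsins higher in DRG, with differences of -1.71 ± 0.11, -0.99 ± 0.13 and -0.62 ± 0.14. The Psap call (-0.20 ± 0.08) was lost without any 1 nerve library of no disease or without DRG no disease replicate 1 or 3 (adjusted p up to 0.152), and that of Lamp2 without nerve no disease replicate 2 or 3 (0.0592 and 0.0784). Over all alternatives tried, these fits included, the Psap call was kept in 6 and lost in 6.

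Cell composition differs between these tissues. Sensory neuron markers summed to 139 to 558 CPM in nerve and 13600 to 15730 CPM in DRG, and macrophage markers to 1099 to 1723 and 209 to 225 CPM. Their part in the tissue differences was not tested. Per kilobase of exon and scaled over the 18 libraries, Psap was the most abundant of the genes in nerve without disease (340.7 CPM per kb ± 14.47, SD), followed by Lamp1 (195 ± 16.2), Ctsb (95.6 ± 13.4) and Ctsd (94.4 ± 10.08). The last pair did not differ beyond their spread. At nerve peak Ctsd (562 ± 122) and Psap (559.6 ± 4.41) led, again within their spread, and Ctss came next (400 ± 138). In DRG the order without disease was Psap (388 ± 8.45), Ctsd (186 ± 10.3), Ctsb (146 ± 3.09), Ctsl (142) and Lamp1 (136). Mcoln3 was last in both tissues without disease.

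The wider pathway was read from 117 further genes in 8 lists, of which 107 were tested in nerve and 109 in DRG. At nerve peak 51 rose and 5 fell, with a median log2 fold change of 0.30, where 15% of all genes tested were called higher and 12.1% lower. At DRG peak 12 rose and 5 fell, with a median of -0.0050, where the shares of all genes were 4.42% and 3.21%. Other lysosomal hydrolases had 19 of 33 higher and 1 lower in nerve: the asparaginyl endopeptidase gene Lgmn rose by 1.80 ± 0.15 and the α-galactosidase gene Gla by 1.51 ± 0.17, while Naaa fell by 0.55 ± 0.11. Other membrane proteins had 11 of 19 higher, led by Gpnmb (3.85 ± 0.22), a glycoprotein of lipid-laden phagocytes, and by the macrophage proteins Cd68 (2.68 ± 0.21) and Laptm5 (1.71 ± 0.23). Cd68 is also in the macrophage list.

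Of 14 further V-ATPase genes tested in nerve, 8 rose and 1 fell: Tcirg1, the a3 subunit of osteoclasts and macrophages, rose by 1.22 ± 0.14, Atp6v0e by 0.76 ± 0.12 and Atp6v0b by 0.64 ± 0.11, while Atp6v0e2 fell by 0.39 ± 0.12. Autophagy genes were split, with 4 higher and 3 lower of 12: Wipi1 rose by 0.54 ± 0.08 and Gabarap by 0.47 ± 0.10, while Gabarapl1 fell by 0.61 ± 0.13, Sqstm1, the p62 cargo receptor, by 0.37 ± 0.12 and Map1lc3b by 0.30 ± 0.08. The list of regulators of the MiT/TFE factors also holds Tfe3, itself a member of that family. Of the 12 genes in this list 6 were higher, with Fnip2, a partner of folliculin, at 1.04 ± 0.11. Sorting genes had 1 of 10 higher (Gnptab, 0.51 ± 0.11), cathepsin inhibitors 1 of 4 (Cstb, 0.78 ± 0.15) and other cathepsins 1 of 3.

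At DRG peak the further genes called higher were fewer. Gpnmb rose by 2.31 ± 0.26, Laptm5 by 1.37 ± 0.23, Tcirg1 by 0.81 ± 0.12 and Fnip2 by 0.61 ± 0.09, and of 16 further V-ATPase genes 1 rose and 2 fell (Atp6v0e2 by 0.36 ± 0.07 and Atp6v1c1 by 0.23 ± 0.06). In nerve recovery against no disease 1 of 107 was called, where 0.629% of all genes were called higher, Gpnmb (1.81 ± 0.21), and in DRG recovery 3 were higher and 1 lower of 109, among them Laptm5 (1.11 ± 0.23) and Tcirg1 (0.60 ± 0.12). The shares over all genes in DRG recovery were 2.44% and 0.734%, so the counts in both recovery comparisons lie near the background. The nerve change at peak minus the DRG change was called above 0 for 37 of 111 and below 0 for 3, against 6.63% and 9.47% of all genes.

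The promoter matches given above were set beside the calls at nerve peak. Of the 10 genes with CACGTG, 5 rose, and of the 17 matched genes without it, 11 rose. With TCACGTGA it was 3 of 5 and without it 13 of 22. Of the 4 genes with GAGGAAGT, 4 rose, and of the 23 without it, 12 rose. The counts are small, the windows cover only 300 bases, and no test was made.

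The authors' deposited table was read for the same genes at q under 0.05. For nerve peak against no disease it gave 20 higher and 0 lower of the 33, against 6.31% and 5% of all 28684 genes listed. For DRG peak it gave 7 higher and 1 lower, against 3.44% and 1.91%. For recovery against no disease the authors' deposited table gave 5 higher and 0 lower in nerve, against 1.08% and 1.2% of all genes, and 3 higher and 0 lower in DRG, against 2.64% and 0.439%. These shares count every gene listed, also those with too few counts to be called. Unlike edgeR here, the deposited table did not call Lamp1 at nerve peak or Atp6v0d1 in DRG recovery. It did call Ctsc, Ctsh and Mcoln3 at DRG peak and Ctsd in nerve recovery, which edgeR did not call or test here.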

How the data were processed

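The authors deposited raw read counts, as whole numbers per Ensembl gene, for the 18 libraries. A deposited normalised signal was found to be the same counts multiplied by a single factor for each library (departures of at most 5.11e-15 in relative terms, genes with 50 or more counts), and was otherwise not used. The authors' deposited table holds log2 ratios and q-values (adjusted p-values), per the file headers. RNA was extracted with a Bio-Rad kit and libraries were made with a SMARTER mRNA kit, per the labels' protocols. STAR 2.6.1a, kallisto 0.44.0, Bowtie2, GRCm38 and mm10 are listed in the submitters' processing notes. The sources used here do not state their roles, how reads were counted or whether by strand, so 9 of the 33 genes whose exons overlap another gene (Ctsa, Ctsb, Ctsz, Lamp1, Hexa, Glb1, Npc1, Atp6v1h and Grn, over 0.694% to 17.4% of exon bases) may include its reads.

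Counts were fitted per tissue, or over all 18 libraries for comparisons between tissues, with edgeR 4.0.16 in R 4.3.3 (filterByExpr, TMM, quasi-likelihood F test, Benjamini-Hochberg over all genes tested, threshold 0.05). The SE is the log2 fold change over the square root of F, and intervals are 95%. The floor for a group at 0 is 3 counts over the group. Exon lengths and positions came from GENCODE vM21, and promoters from RefSeq. Data were simulated with 67 genes changed at each size. The fit recovered 86.6% of 2-fold and 32.8% of 1.5-fold changes for nerve peak (15875 genes), and 97% and 61.2% for DRG peak (16211 genes). The changed genes were drawn only from those with high counts and were far fewer than the genes called in the data. These rates therefore do not apply to genes with few counts and do not give the power of the fits to the data.

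The 33 genes, the 8 lists of other pathway genes and the 16 lists of cell markers were chosen with earlier results of these data known. All 33 genes are named. Values per library are given for the gene of each role with the largest change at nerve peak and at DRG peak, for genes called in recovery against no disease, and for Lamp1 and Ctsd. Of other pathway genes, at most 3 per list and direction are named, among those past the threshold with a mean of at least 5 CPM; a gene that this rule names is not reported here. The marker lists not described with the results at nerve peak were as follows. T and NK cell markers had 1 of 4 tested higher, and neutrophil markers 1 higher and 2 lower of 3. Red blood cell markers had 3 of 5 lower and melanocyte markers (which include Mitf) 2 of 3 higher. Of B cell, mast cell and adipocyte markers, 0 of 1, 6 and 6 were called. Alternatives were RLE size factors, no filter, DESeq2 1.42.0, voom in limma 3.58.1, a replicate block, removal of 3 genes holding ribosomal RNA, 1 fit of 18 libraries, and leaving out each library.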

Additional observations from a re-analysis of the deposited data

Results flagged for a closer look

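For 16 of the 33 genes the change from no disease to peak differed between sciatic nerve and DRG in edgeR's test of the difference over all 18 libraries, adjusted over 17289 genes. Values are the nerve change minus the DRG change on the log2 scale. Among cathepsins the difference was 1.10 for Ctsa, 1.39 for Ctsb, 2.59 for Ctsd, 1.37 for Ctss and 0.80 for Ctsz. Lamp1 differed by 0.34. Among hydrolases and activators the difference was 1.18 for Hexa, 1.47 for Gusb, 0.97 for Glb1, 0.81 for Lipa, 0.96 for Grn and 0.76 for Psap. In the V-ATPase it was 0.54 for Atp6v0d1, 0.96 for Atp6v1a and 0.62 for Atp6v1b2. Mcoln2 went the other way, at -2.98. Groups held 3 libraries, so single libraries were not screened for values far from the rest.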

How the results depend on the processing

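No gene of the 33 that was called changed sign under any alternative tried. Called in every setting, leave-one-out fits included, were 19 of 21 at nerve peak, 14 of 18 in nerve recovery against peak, 4 of 5 at DRG peak, 13 of 16 in the tissue difference, 28 of 30 between tissues without disease and 0 of 4 in each recovery against no disease. The causes of the changes below were not tested. For nerve recovery against no disease, limma-voom gave 1 higher, and leaving out single libraries 1 to 3. For DRG recovery against no disease (3 higher, 1 lower), limma-voom gave 1 and 2, the replicate block 1 and 0, RLE size factors 2 lower, no filter 0 lower, DESeq2 4 lower, removal of the ribosomal RNA genes 2 lower, 1 fit of all 18 libraries 0 lower, and leaving out single libraries 0 to 8 higher and 0 to 6 lower. For DRG recovery against peak, DESeq2 gave 2 lower, and leaving out single libraries 0 to 1 higher and 0 to 3 lower. At nerve peak leaving out single libraries gave 0 to 1 lower, and limma-voom gave 0 lower in the tissue difference, where it did not call Mcoln2.

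Counts over all genes also moved by more than 1.5 times. At nerve peak 1 fit of 18 libraries called 3026 lower (1949 in the fit of nerve alone), and in nerve recovery against peak 1960 higher (1181). In nerve recovery against no disease (101 higher, 63 lower), no filter gave 176 and 140, DESeq2 277 and 253, limma-voom 55 and 35 and the fit of 18 libraries 170 and 145. In DRG, DESeq2 gave 849 lower at peak (529) and 895 higher and 562 lower in recovery against no disease (402 and 121), where no filter gave 674 higher, the replicate block 66 lower and the fit of 18 libraries 76 lower. In DRG recovery against peak (5 and 18), no filter gave 46 and 92, DESeq2 101 and 190, limma-voom 1 and 11 and the block 0 and 4. In the tissue difference no filter gave 999 lower (1637). Leaving out single libraries gave 13 to 79 higher and 0 to 65 lower in nerve recovery against no disease, 429 to 1621 and 819 to 2145 in nerve recovery against peak (1181 and 1785), 195 to 473 and 119 to 307 at DRG peak (728 and 529), 2 to 1758 and 0 to 1864 in DRG recovery against no disease, 0 to 579 and 0 to 1175 in DRG recovery against peak, and 752 to 1367 and 1028 to 1729 in the tissue difference (1146 and 1637). No such fit moved the counts at nerve peak or between tissues without disease by that much.

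Replicate numbers were not used to pair the samples. Between stages of a tissue, deviations of same-numbered libraries correlated from -0.0413 to 0.137 in nerve and -0.329 to 0.281 in DRG. A library matched its own number best in 13 of 18 cases in nerve and 6 of 18 in DRG. The DRG figure is what unrelated numbers would give. The nerve figure is above it, so a weak tie by number is not excluded there. Nerve was not checked against DRG, and the fit of all 18 libraries treated the tissues as unpaired. With the number as a block, calls were 21 at nerve peak, 3 in nerve recovery, 4 higher and 1 lower at DRG peak, and 14 higher and 1 lower in the tissue difference. Genes with few counts, Mcoln2, Mcoln3 and Tfec in DRG above all, are limited by depth.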
